A study of Mus musculus with 32 samples.

Results

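The 10 genes described here were selected on their log2 fold change at the extremes of a comparison of lungs from tamoxifen-treated pups with lungs from pups given the oil in which tamoxifen was dissolved. Of these genes, 8 were lower after tamoxifen (Lmo3, Thsd7b, Prokr2, Slitrk6, Npy2r, Olfr78, Glrb and Slc22a19) and 2 were higher (Prmt8 and the agouti gene, listed under the symbol a). They are 10 of 46165 gene records, of which 18853 had at least 1 exon read and 14107 were tested at day 6. Because the tamoxifen difference chose the genes, it is given for them as a description, with no test.

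Lung tissue of C57BL/6 pups that carry no named transgene gave 32 bulk RNA libraries in 8 groups of 4. At postnatal day 6 the groups were tamoxifen (0.4 mg in 25 µl of Miglyol, an oil vehicle of medium-chain triglycerides), Miglyol alone (25 µl) and saline (25 µl), each injected into the peritoneum on days 1 and 2. At postnatal day 14 they were untreated pups, pups given saline every day from day 1 to day 13 (25 µl/g), pups that received water free of nucleases (10 µl/g, days 1 and 3), and 2 groups that received a control oligonucleotide of locked nucleic acid with a scrambled sequence, named scrambled 1 and scrambled 2, in that water (10 mg/kg, days 1 and 3). The labels do not tie the libraries to separate animals or litters, so the p-values measure the spread between these libraries, part of which may be technical. Total exon reads ran from 7918537 to 12443221 per library, and levels are CPM, exon read counts scaled to the size of each library with TMM factors, with group values as mean ± SD over 4 libraries. All 10 of 10 listed marker genes of alveolar type 1 cells, all 10 of 10 of alveolar type 2 cells and all 12 of 12 of endothelium were measured and tested at day 6. So were 10 of 10 of smooth muscle and 9 of 10 of heart muscle, so this is no check of the tissue label.

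Tamoxifen binds the oestrogen receptors, which are transcription factors, and acts as an antagonist in some tissues and as a partial agonist in others. In mouse work it is given to newborn pups to switch on Cre recombinases fused to a modified oestrogen receptor. Several of the lowered genes are best known from nerve cells: Prokr2 and Npy2r encode G-protein-coupled receptors for prokineticins and neuropeptide Y, Glrb encodes a subunit of the glycine-gated chloride channel, and Slitrk6 belongs to a family of leucine-rich repeat membrane proteins that act in neurite growth and synapse formation. Olfr78 is an olfactory receptor gene that is also used outside the nose, where its product responds to short-chain fatty acids. In bulk tissue, fewer cells of a type and less RNA per cell cannot be told apart.

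Promoter sequence was examined for the binding motif of the oestrogen receptors because tamoxifen is a ligand of these receptors. RefSeq (GRCm38.p6) gave 10 windows for 9 of the 10 genes, each running from 250 bases before the transcription start to 50 bases after it, with Olfr78 unmatched. The full palindrome GGTCANNNTGACC, searched on both strands, was in no window of the 9 genes and in 23 of 32851 windows of all genes (0.07%). Its single arm GGTCA, which also lies inside the palindrome and was searched on both strands, was in a window of 3 of the 9 genes (33.3%) and in 40.5% of all windows. The match lay 143 bases before the start in Prokr2, 91 bases before it in Slc22a19 and 31 bases after it in Lmo3. The 250 bases before the start are printed for the 2 genes with a match there, for Lmo3, which had the largest fall, and for a, which rose, with the GGTCA match in capitals.
Prokr2, chr2:132385448-132385697, minus strand: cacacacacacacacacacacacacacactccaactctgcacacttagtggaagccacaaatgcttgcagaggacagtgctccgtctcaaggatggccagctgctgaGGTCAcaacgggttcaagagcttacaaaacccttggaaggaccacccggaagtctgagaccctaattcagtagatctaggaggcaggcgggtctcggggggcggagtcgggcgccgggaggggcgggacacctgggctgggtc
Slc22a19, chr19:7711311-7711560, minus strand: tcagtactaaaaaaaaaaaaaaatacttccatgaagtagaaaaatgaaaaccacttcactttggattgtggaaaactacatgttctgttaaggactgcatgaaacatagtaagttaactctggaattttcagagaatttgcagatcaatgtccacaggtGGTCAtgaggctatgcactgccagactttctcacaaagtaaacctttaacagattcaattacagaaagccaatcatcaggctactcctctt
Lmo3, chr6:138581969-138582218, minus strand: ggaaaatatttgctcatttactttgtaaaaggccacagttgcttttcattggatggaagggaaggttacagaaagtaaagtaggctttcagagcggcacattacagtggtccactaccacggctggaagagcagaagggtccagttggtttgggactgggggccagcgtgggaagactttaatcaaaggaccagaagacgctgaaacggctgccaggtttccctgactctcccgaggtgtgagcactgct
a, chr2:155013320-155013569, plus strand: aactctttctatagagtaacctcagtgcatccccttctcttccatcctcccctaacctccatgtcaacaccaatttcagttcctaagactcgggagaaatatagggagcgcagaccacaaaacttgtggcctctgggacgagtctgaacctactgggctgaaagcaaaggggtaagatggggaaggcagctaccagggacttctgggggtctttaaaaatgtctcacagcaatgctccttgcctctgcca
The window of a lies inside its gene record, which begins further upstream. A match of letters is a description of the window and does not mark a bound site.

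All 10 genes were low in lung except Slitrk6. Per length, in the authors' RPKM values of the saline group at day 6, Slitrk6 stood at 9.74 ± 1.43, followed by Olfr78 at 1.66 ± 0.15, Npy2r at 1.28 ± 0.33, Glrb at 0.948 ± 0.174, Slc22a19 at 0.801 ± 0.107, Prokr2 at 0.721 ± 0.123, Thsd7b at 0.563 ± 0.096, Lmo3 at 0.292 ± 0.082, a at 0.0506 ± 0.0199 and Prmt8 at 0.0155 ± 0.0216 (SD, n = 4). Neighbours from Olfr78 down to Thsd7b overlapped in their ranges, as did a and Prmt8, while Slitrk6 against Olfr78, Thsd7b against Lmo3 and Lmo3 against a did not. After tamoxifen Slitrk6 kept the highest RPKM, at 2.99 ± 0.64, while Prmt8 took the third place at 0.419 ± 0.171 and Lmo3 the last at 0.0688 ± 0.0316. In that group every pair of neighbours below Slitrk6 overlapped.

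**Figure D1:**
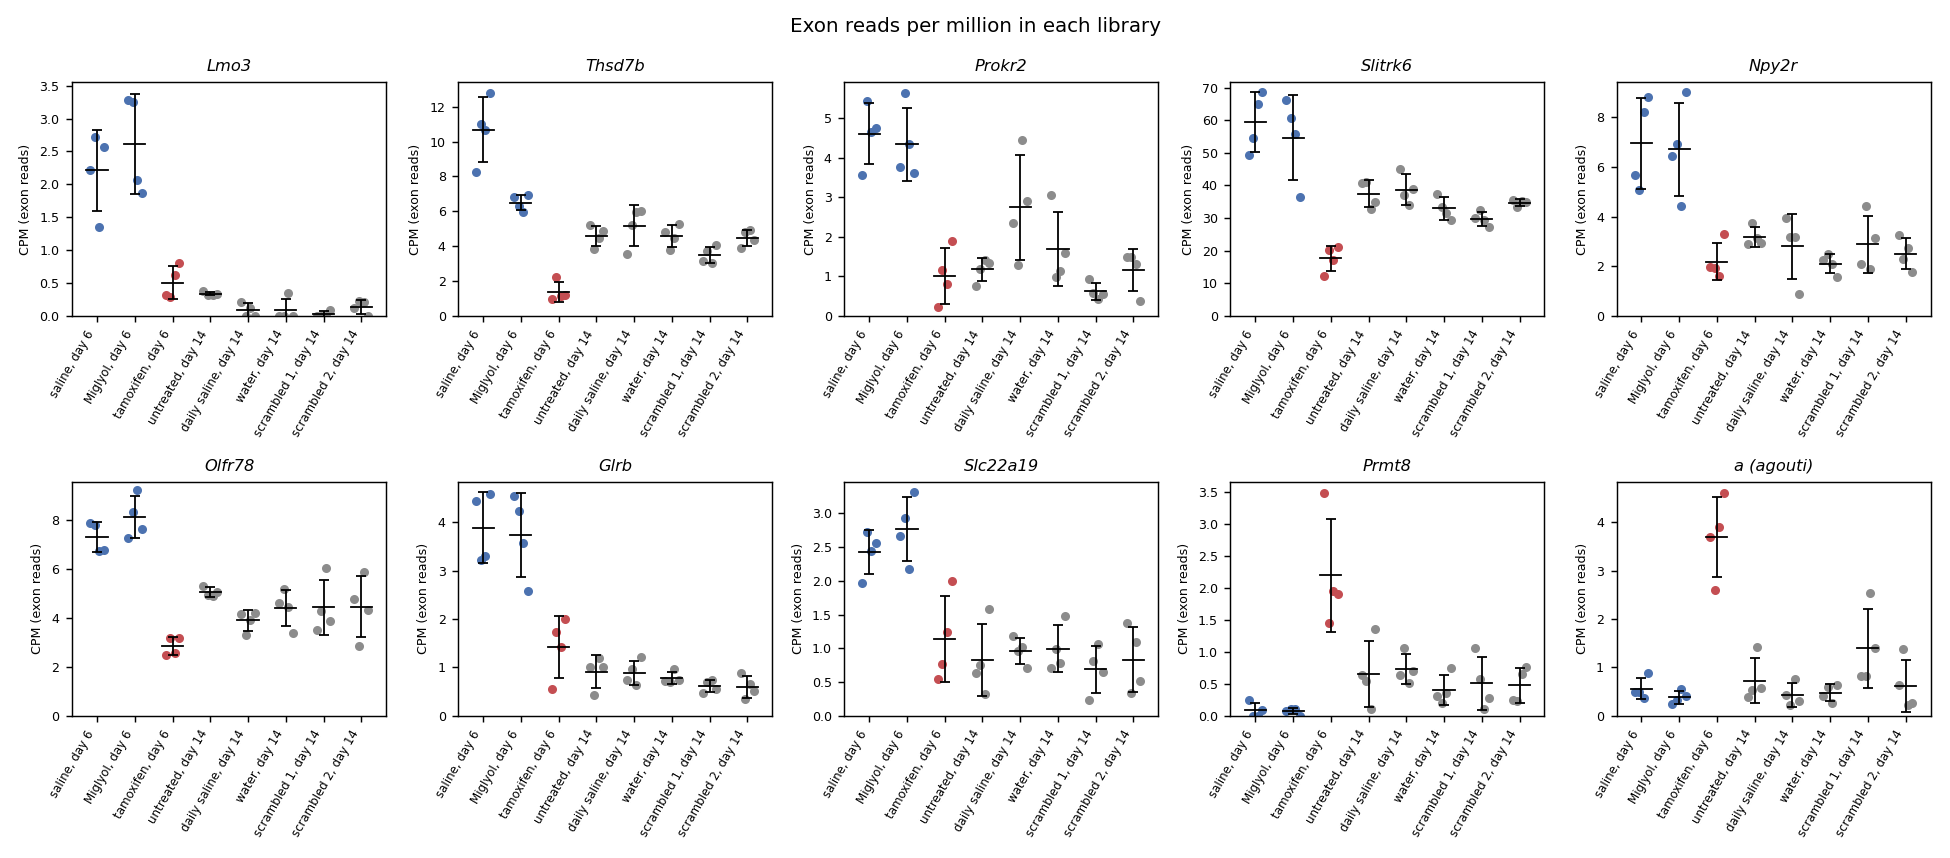
Exon levels (y axes, CPM) of the 10 genes in each library of the 8 groups (x axes), with points for libraries, the group mean as a horizontal bar and the SD as whiskers. Tamoxifen libraries (red) lie below the saline and Miglyol libraries of day 6 (blue) for the lowered genes, apart from 1 Slc22a19 library at 2.00 CPM, and above them for Prmt8 and a.

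The 4 receptor genes were lower in every tamoxifen library than in any of the 8 saline and Miglyol libraries of day 6. This is the comparison that chose them, in which 5.68% of tested genes passed an adjusted p of 0.05 (edgeR quasi-likelihood test, Benjamini-Hochberg) for tamoxifen against Miglyol, so nothing is read from the separation. Prokr2 (gene ID 246313, chromosome 2 from 132370329 to 132385498, minus strand) measured 3.58, 5.45, 4.66 and 4.77 CPM after saline, 3.76, 5.64, 4.34 and 3.62 CPM after Miglyol, and 0.217, 1.15, 0.798 and 1.90 CPM after tamoxifen. The lowest tamoxifen library held 2 exon reads. Its level was 4.16-fold lower than with Miglyol, a log2 difference of -2.06 (SE 0.32). Npy2r (gene ID 18167, chromosome 3 from 82538383 to 82548989, minus strand) measured 5.67, 5.08, 8.21 and 8.83 CPM after saline, 6.42, 6.94, 4.45 and 9.01 CPM after Miglyol, and 1.95, 1.92, 1.60 and 3.30 CPM after tamoxifen. The controls spread over about the same range with and without the oil, and the highest tamoxifen library stayed under the lowest of them. The log2 difference from Miglyol was -1.61 (SE 0.26).

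Olfr78 (gene ID 170639, chromosome 7 from 102740721 to 102759471, minus strand) was the steadiest of the receptor genes, with 7.89, 7.81, 6.74 and 6.80 CPM after saline, 7.29, 8.35, 9.22 and 7.66 CPM after Miglyol, and 2.50, 3.17, 2.57 and 3.20 CPM after tamoxifen. Its log2 difference from Miglyol was -1.49 (SE 0.15), from 117 reads in the tamoxifen group against 329. Glrb (gene ID 14658, chromosome 3 from 80843598 to 80913660, minus strand) measured 4.44, 3.22, 3.31 and 4.59 CPM after saline, 4.54, 4.23, 3.58 and 2.59 CPM after Miglyol, and 0.543, 1.73, 1.42 and 2.00 CPM after tamoxifen. Tamoxifen replicate 1 was the lowest library for Glrb, as it also was for Prokr2, Slitrk6, Thsd7b, Olfr78 and Slc22a19. The log2 difference of Glrb from Miglyol was -1.38 (SE 0.28), and lay between -1.57 and -1.13 when any 1 library was left out.

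Among the other lowered genes, Lmo3 had the largest difference and Slitrk6 the most reads. Lmo3 encodes a LIM-domain-only protein, a cofactor that bridges transcription factors (gene ID 109593, chromosome 6 from 138362918 to 138581968, minus strand). It measured 2.22, 2.73, 1.35 and 2.56 CPM after saline, 3.29, 3.25, 2.06 and 1.86 CPM after Miglyol, and 0.326, 0.288, 0.621 and 0.800 CPM after tamoxifen. These tamoxifen levels rest on 3 to 8 exon reads per library, and the ratio of summed reads to Miglyol was 0.193, with an exact 95% counting interval of 0.115 to 0.309. Such intervals cover counting error only. The fitted log2 difference was -2.33 (SE 0.35).

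Slitrk6 (gene ID 239250, chromosome 14 from 110748041 to 110755205, minus strand) had 49.2, 54.5, 65.1 and 68.8 CPM after saline, 66.1, 60.5, 55.7 and 36.4 CPM after Miglyol, and 12.4, 20.2, 17.0 and 21.0 CPM after tamoxifen. Its 114 to 210 reads per tamoxifen library make it the best counted of the 10 genes, and the log2 difference from Miglyol was -1.63 (SE 0.20). Thsd7b encodes a membrane protein with thrombospondin type 1 repeats (gene ID 210417, chromosome 1 from 129273304 to 130219278, plus strand). It measured 8.27, 11.0, 10.7 and 12.8 CPM after saline, 6.82, 6.29, 5.97 and 6.93 CPM after Miglyol, and 0.977, 2.21, 1.15 and 1.20 CPM after tamoxifen. Thsd7b was the 1 gene of the 10 whose saline and Miglyol ranges did not overlap, in a comparison in which 10.6% of tested genes passed the threshold, 7.29% lower and 3.33% higher. The 1498 genes behind that share were 308 to 1729 when 1 library was left out, 461 with the replicate block and 2272 with all 32 libraries in the fit. Its log2 difference was -0.73 (SE 0.17) between Miglyol and saline, -2.21 (SE 0.22) between tamoxifen and Miglyol and -2.94 (SE 0.21) between tamoxifen and saline.

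Slc22a19 encodes an organic anion transporter known from the kidney (gene ID 207151, chromosome 19 from 7672654 to 7711310, minus strand). It measured 1.97, 2.73, 2.45 and 2.56 CPM after saline, 2.66, 2.93, 2.17 and 3.31 CPM after Miglyol, and 0.543, 0.769, 1.24 and 2.00 CPM after tamoxifen. Tamoxifen replicate 4, at 2.00 CPM, was just above saline replicate 1 at 1.97 CPM, so that 3 of 4 tamoxifen libraries lay below all 8 controls. The log2 difference from Miglyol was -1.26 (SE 0.29).

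Prmt8 and a were low at day 6 in the absence of tamoxifen. Prmt8 encodes a membrane-bound arginine methyltransferase known from the brain (gene ID 381813, chromosome 6 from 127689009 to 127769159, minus strand). It had 2, 0, 0 and 1 exon reads after saline, 1, 1, 1 and 0 after Miglyol, and 32, 15, 22 and 19 after tamoxifen. These were 3.47, 1.44, 1.95 and 1.90 CPM in the tamoxifen libraries and at most 0.247 CPM in the controls. With 3 reads in each control group, the ratio of summed reads scaled to library size was 29.3 against Miglyol (exact 95% counting interval 9.71 to 145) and 25.6 against saline (8.47 to 126).

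The gene a encodes the agouti signalling protein, an antagonist of melanocortin receptors that sets coat colour (gene ID 50518, chromosome 2 from 154950162 to 155051012, plus strand). C57BL/6 mice are homozygous for its nonagouti allele, which holds a retrovirus-like insertion in an intron. Exon levels of a were 0.493, 0.496, 0.368 and 0.883 CPM after saline, 0.235, 0.325, 0.543 and 0.414 CPM after Miglyol, and 3.69, 2.60, 3.90 and 4.60 CPM after tamoxifen. The summed reads were 151 after tamoxifen and 15 after Miglyol, a scaled ratio of 10.1 (exact 95% counting interval 5.91 to 18.4), and the fitted log2 difference was 3.28 (SE 0.32). Which transcript these exon reads come from cannot be told from counts per gene, so the rise is that of the gene record. Reads spanning an exon junction were few: no library had more than 1 in a, while the 4 tamoxifen libraries had 8, 3, 2 and 4 in Prmt8. Of the exon reads of a, 88.8% were unique, against at least 97.5% for each of the other 9 genes.

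**Figure D2:**
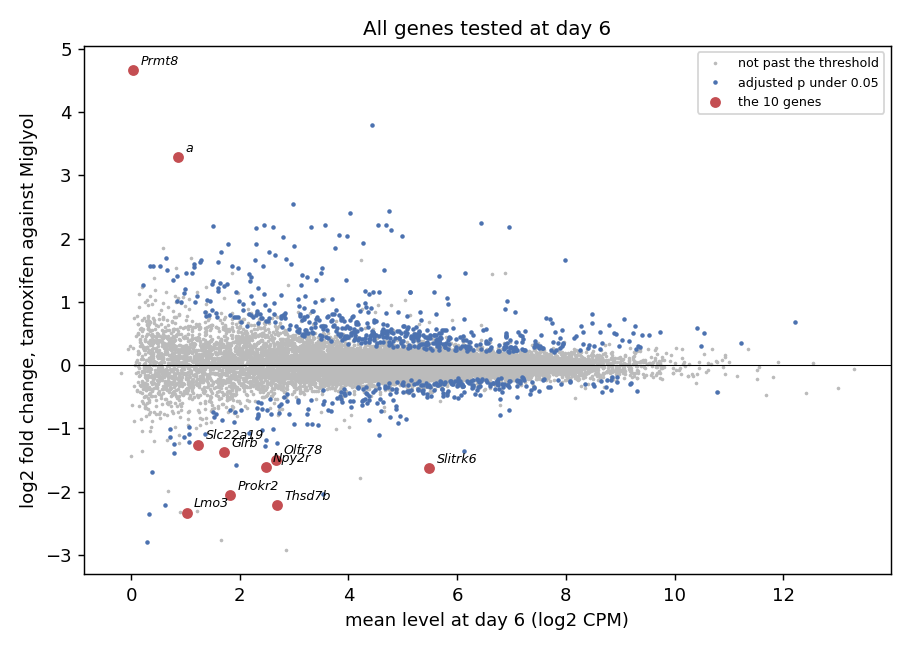
Log2 fold change between tamoxifen and Miglyol (y axis) against the mean level at day 6 (x axis, log2 CPM) for the 14107 tested genes, with the 801 genes past the threshold in blue and the 10 genes in red. Prmt8 and a have large rises at low levels, and Slitrk6 is the lowered gene of highest level.

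The genes were ranked by their difference between tamoxifen and Miglyol. In that comparison 1.96% of tested genes were past the threshold and lower, and 3.71% higher. The ranking kept genes that passed, had non-overlapping ranges and averaged 1 CPM or more. In it the 8 lowered genes held ranks 1 to 3, 5 to 8 and 10 of 238 falls, by log2 difference. Mb, the oxygen-binding protein of muscle, held the fourth rank at -2.03, and Igfbp2, which binds insulin-like growth factors, the ninth at -1.36. Slc22a19 at -1.26 was the last inside and Acvr1c at -1.25 the first outside. Of 394 rises Prmt8 was the first and a the third, with Gpnmb between them at 3.79 and Camp next at 2.55. The genes were chosen from the extremes of this comparison, so these ranks describe the choice and support nothing further. Mb, Igfbp2 and Gpnmb ranked between chosen genes and were not chosen, so rank alone does not define the choice. The count of 801 genes ranged from 429 without tamoxifen replicate 1 to 1188 without tamoxifen replicate 2, and was 471 without Miglyol replicate 1 and 526 without Miglyol replicate 2.

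Differences of the 10 genes from saline had the same signs as those from Miglyol, although the comparison, which 23.7% of tested genes passed (12.3% lower and 11.3% higher), shares the tamoxifen libraries with the one that chose the genes. Log2 differences between tamoxifen and saline were -2.10 for Lmo3, -2.16 for Prokr2, -1.75 for Slitrk6, -1.68 for Npy2r, -1.44 for Glrb, -1.35 for Olfr78 and -1.08 for Slc22a19. For a the difference was 2.63, and the 7 other lowered genes besides Thsd7b lay between -0.12 and 0.24 in Miglyol against saline.

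The genes lowered by tamoxifen at day 6 were also lower in untreated lungs at day 14 than in saline lungs at day 6. The groups compared hold no tamoxifen or Miglyol library, but the test came from a fit of all 32 libraries, so those libraries entered its filter and its estimate of the spread. In that fit 37.7% of 14406 genes passed, 18.6% lower and 19.1% higher at day 14. Age, handling and the agent used for euthanasia differ together between these groups and cannot be told apart. A gene can pass the filter on low counts through the group in which it is high, so each gene is given by its own values and no count over them is read as support. In a fit of only the 8 libraries compared, each of the 8 lowered genes kept its direction, and Prmt8 and a gave no value. Those of the 8 that are tested here stayed past the threshold.

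Lmo3 and Glrb did not pass the filter on low counts among the day-14 libraries and entered this fit through groups of day 6. They are given as a description, with no test. Lmo3 fell by 2.66 on the log2 scale (SE 0.46), to 0.380, 0.322, 0.326 and 0.338 CPM in the untreated libraries, which held 3 reads each. Glrb fell by 2.09 (SE 0.30), to 1.01, 0.430, 1.19 and 1.01 CPM. Prokr2 fell by 1.95 (SE 0.37, adjusted p = 8.05e-05), to 0.760, 1.18, 1.41 and 1.35 CPM. Of all genes in the fit, 0.7% had a more negative value than Prokr2. Slc22a19 fell by 1.55 (SE 0.38, adjusted p = 0.00145), Thsd7b by 1.23 (SE 0.17, adjusted p = 4.45e-07) and Npy2r by 1.13 (SE 0.28, adjusted p = 0.00171). Slitrk6 and Olfr78 fell least, by 0.67 (SE 0.14, adjusted p = 0.000323) and 0.53 (SE 0.17, adjusted p = 0.0120). In each of these 8 genes all 4 untreated libraries lay below all 4 saline libraries of day 6. How many of all genes lie apart in this way was not counted, so nothing is read from it.

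Prmt8 is given for this comparison as a description, with no test, because it passed the filter through the tamoxifen libraries that chose it. It had 5, 5, 1 and 12 reads in the untreated libraries against 2, 0, 0 and 1 after saline. The scaled ratio of summed reads was 7.75, with an exact 95% counting interval of 2.34 to 40.3. The fitted log2 difference was 2.77, and 2.14 without untreated replicate 4, the library with 12 reads. The exon level of a did not pass (log2 difference 0.33, SE 0.52, adjusted p = 0.657), and without untreated replicate 3, at 1.41 CPM, its sign turned to -0.23.

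**Figure D3:**
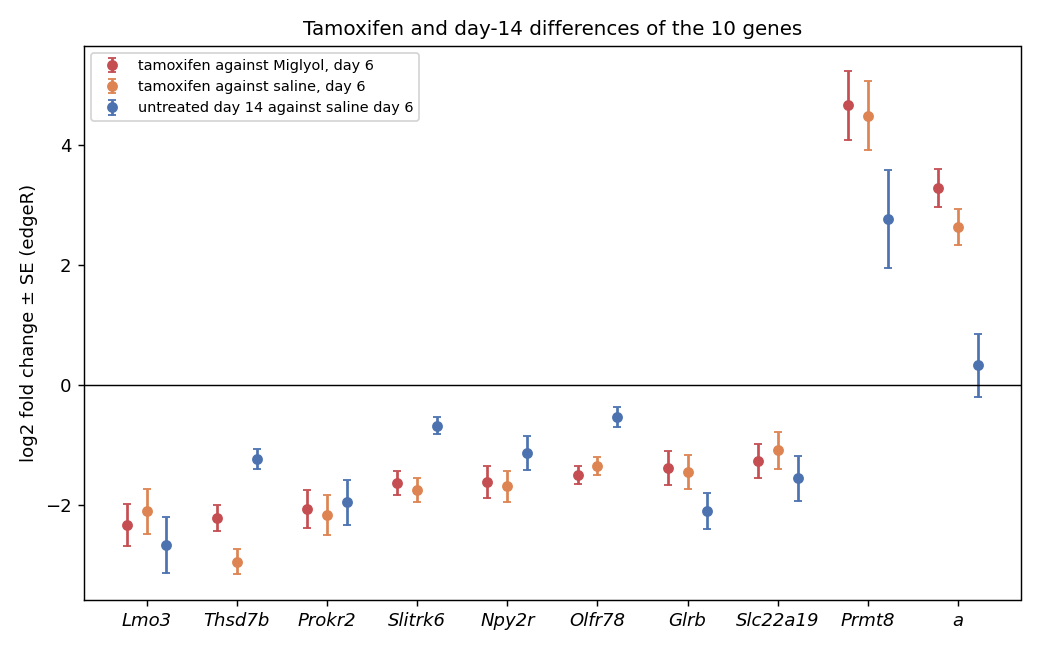
Log2 fold changes with SE from edgeR (y axis) of the 10 genes (x axis) in tamoxifen against Miglyol, tamoxifen against saline and untreated day 14 against saline day 6. The 8 lowered genes are below 0 in all 3 comparisons, and Prmt8 is above 0 in all 3.

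Tamoxifen levels of day 6 were set against the levels of day 14. Tamoxifen libraries of day 6 lay below all 20 libraries of day 14 for Thsd7b and Slitrk6, in 4 of 4 libraries. Levels between day 6 and day 14 were not measured. For Npy2r all 4 tamoxifen libraries lay inside the day-14 range of 0.905 to 4.41 CPM, for Prokr2 and Slc22a19 it was 3 of 4, and for Olfr78 2 of 4. For Glrb 3 of 4 and for Lmo3 2 of 4 lay above the whole day-14 range. Lmo3 had 25 reads in all 20 libraries of day 14, and 9 of these libraries had none. Prmt8 and a were higher in all 4 tamoxifen libraries than in any library of day 14, where the highest values were 1.35 and 2.54 CPM. The tamoxifen levels set against day 14 here are those that chose the genes. The share of all genes placed in this way was not counted, so nothing is read from these positions.

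**Figure D4:**
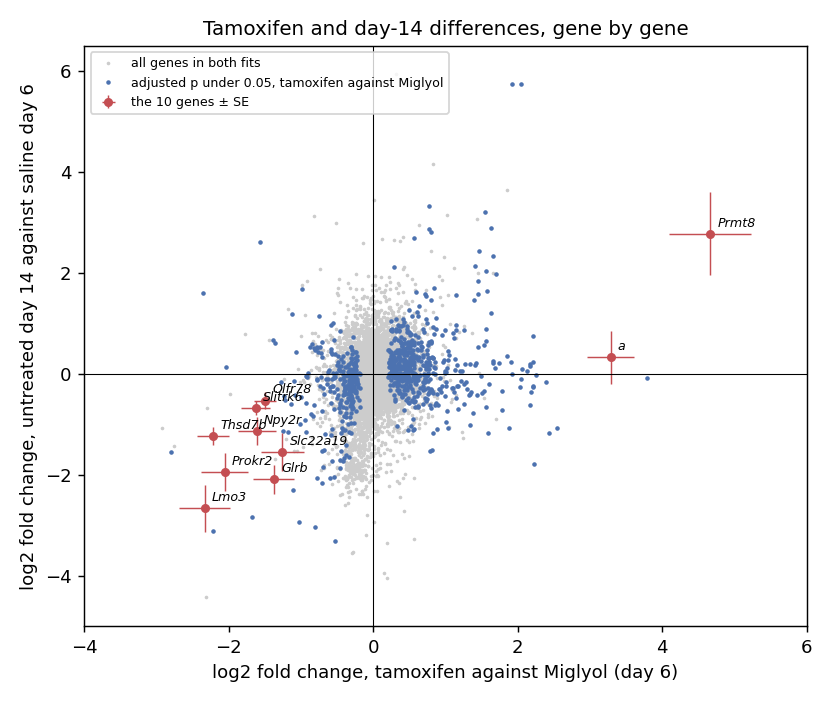
Log2 fold change of untreated day 14 against saline day 6 (y axis) against that of tamoxifen against Miglyol (x axis) for genes in both fits, with genes past the threshold for tamoxifen in blue and the 10 genes with their SE in red. The 8 lowered genes are in the lower left, and 2 of 14107 genes lie outside the axes.

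The same 2 comparisons, which share no library, were set side by side over all genes. Of 277 genes lower with tamoxifen than with Miglyol, 132 (47.7%) were also lower at day 14 and 46 (16.6%) higher, and the 132 genes are 4.91% of the genes lower at day 14. Of 524 genes higher with tamoxifen, 172 (32.8%) were higher at day 14 and 60 (11.5%) lower, and the 172 are 6.25% of the genes higher at day 14. Among all 14107 genes tested at day 6, 19% were lower and 19.1% higher at day 14. The median difference between day 14 and day 6 was -0.21 for the lower genes, 0.12 for the higher genes and 0 for all genes.

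Within day 14 none of the 10 genes passed the test over the 5 groups, which 1.17% of 14179 genes passed (166 genes, 48 to 488 when 1 library was left out and 581 with DESeq2). Prokr2 came nearest: it had 2.35, 1.28, 4.44 and 2.92 CPM after daily saline, 1.70 ± 0.95 CPM after water, 1.18 ± 0.29 CPM untreated, 1.17 ± 0.53 CPM with scrambled 2, and 0.936, 0.580, 0.423 and 0.556 CPM with scrambled 1. Every daily saline library was above every scrambled 1 library, and the largest minus the smallest group was 2.11 on the log2 scale (edgeR adjusted p = 0.0546). That p was 0.0427 without daily saline replicate 2, 0.0417 without water replicate 1, 0.0420 without water replicate 3 and 0.0246 without scrambled 2 replicate 4. It was also under 0.05 with no filter on low counts (0.0430), with unique reads (0.0477) and with all 32 libraries in the fit (0.0380), and over all alternatives it ranged from 0.0246 to 0.176.

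Slitrk6 spanned 0.38 on the log2 scale (adjusted p = 0.0918), from 38.7 ± 4.7 CPM after daily saline to 29.7 ± 2.2 CPM with scrambled 1, and passed with DESeq2 (adjusted p = 0.0264) and with all reads in the gene counted (0.0374). The gene a was highest with scrambled 1, at 0.819, 0.813, 2.54 and 1.39 CPM, with a span of 1.74 (adjusted p = 0.217). The remaining tested genes had adjusted p-values of 0.390 for Thsd7b, 0.711 for Npy2r, 0.772 for Olfr78 and 0.916 for Slc22a19. Lmo3, Glrb and Prmt8 did not pass the filter on low counts at day 14 and, tested without it, had adjusted p-values of 0.432, 0.788 and 0.84. All 20 libraries of day 14 were below the lowest saline library of day 6 for every lowered gene, except 1 daily saline library of Prokr2. Against the lowest of all 8 saline and Miglyol libraries it was 14 of 20 for Slitrk6, 19 of 20 for Thsd7b and for Prokr2, and 20 of 20 for the other 5. The share of all genes placed in this way was not counted, so these positions describe the chosen genes only.

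Intron reads of Thsd7b and Olfr78 were lower after tamoxifen along with their exon reads, and intron reads of a were higher. Thsd7b, with 62.8% of its gene reads in introns, had 9.00 to 14.7 CPM of intron reads after Miglyol and 1.41 to 4.61 after tamoxifen. Olfr78 had 2.06 to 4.12 after Miglyol and 0.798 to 1.10 after tamoxifen. In both genes the tamoxifen and Miglyol ranges of intron reads did not overlap. Nor did those of Lmo3 (0.651 to 1.72 after Miglyol, 0.2 to 0.621 after tamoxifen), Prmt8 (0 to 0.1035 and 0.288 to 1.95) and Npy2r (0.207 to 0.868 and 0 to 0.2). For Lmo3 the saline range, 0.613 to 2.10, did overlap the tamoxifen range. Those of Slc22a19 overlapped (0.548 to 2.06 and 0.434 to 1.40). The share of all genes with such separation was not counted, so these ranges describe the chosen genes only. The gene a had 91.6% of its gene reads in introns, and of these 30% were unique, as were 27.8% of the intron reads of Thsd7b, against 98.7% for Olfr78. Its intron level was 4.09 to 5.18 after saline, 5.07 to 7.44 after Miglyol and 15.8 to 20.4 after tamoxifen. At day 14 it was 8.24 to 24.7, whereas the exon level at day 14 stayed below every tamoxifen library. The value of 24.7 was that of scrambled 1 replicate 3, which also had the highest day-14 exon level of a, 2.54 CPM. The next highest day-14 intron level was 16.45, in scrambled 2 replicate 4. That was above tamoxifen replicate 4 (15.8) and below tamoxifen replicates 1, 2 and 3 (16.8, 17.1 and 20.4). With all reads in the gene counted, the log2 difference of a was 1.60 between tamoxifen and Miglyol, and 1.49 between untreated day 14 and saline day 6 (adjusted p = 1.28e-05).

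**Figure D5:**
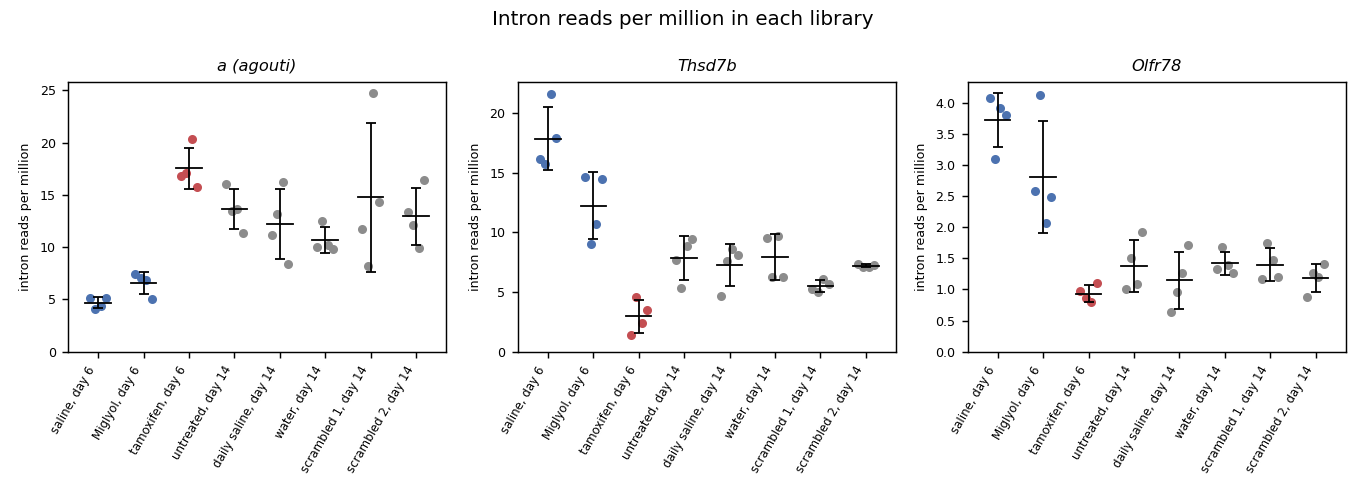
Intron reads (y axes, CPM) of a, Thsd7b and Olfr78 in each library of the 8 groups (x axes), with points for libraries, the group mean as a horizontal bar and the SD as whiskers. After tamoxifen and at day 14, a lies above all saline and Miglyol libraries of day 6, and Olfr78 lies below them. For Thsd7b the day-14 libraries lie above the tamoxifen libraries, and the highest of them overlap the Miglyol range.

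Over the 8 group means, the lowered genes differed in shape. The likeness of 2 genes was measured as the root mean square difference of their centred log2 profiles, taken after adding 0.5 CPM, where 0 is identical. The added 0.5 CPM shrinks differences of genes near or below that level, so a small value does not mean equal fold changes. Slitrk6 and Olfr78 were the closest pair of the 10 (0.21), followed by Thsd7b and Slitrk6 (0.22), Npy2r and Olfr78 (0.24) and Lmo3 and Glrb (0.25), while Prmt8 and a were 0.43 apart. Outside the 10, the most similar gene was Shisa3 for Lmo3 (0.29), Unc5d for Thsd7b (0.39) and for Slitrk6 (0.22), Dcx for Prokr2 (0.35), Csmd3 for Npy2r (0.18), Cdh16 for Olfr78 (0.18), Fbn2 for Glrb (0.20), Epha7 for Slc22a19 (0.15), Lcn2 for Prmt8 (0.24) and Ccl11 for a (0.34). Csmd3, for example, had a log2 difference of -2.80 between tamoxifen and Miglyol against -1.61 for Npy2r. These values rest on 8 group means of libraries that all 10 genes share.

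Most of the tested genes nearest to the 10 on the chromosome did not pass the test. Their distances ran from 8.3 kb (Ahcy to a) to 6165.8 kb (Gpc6 to Slitrk6). Of the 20 nearest tested neighbours, 2 rose and 2 fell between Miglyol and tamoxifen, against 5.68% of all tested genes. Tspan11, 118.5 kb from Prmt8, rose by 0.61 on the log2 scale (SE 0.08, adjusted p = 0.000378), and Mgst1, 206.2 kb from Lmo3, rose by 0.28 (SE 0.06, adjusted p = 0.0119). Fam198b, 897.3 kb from Glrb, fell by 0.29 (SE 0.07, adjusted p = 0.0151). Ahcy, which encodes an enzyme of the methylation cycle and lies 8.3 kb from a, fell by 0.28 (SE 0.07, adjusted p = 0.0323). Mgst1 did not pass without tamoxifen replicate 1 (adjusted p = 0.0504) or with all 32 libraries in the fit (0.0718). Fam198b had an adjusted p of at most 0.0565 and did not pass without Miglyol replicate 2, Miglyol replicate 3 or tamoxifen replicate 3. Ahcy did not pass with unique reads (0.207) or the replicate block, or without Miglyol replicate 1, 2 or 4 or tamoxifen replicate 1 or 4 (at most 0.121). Olfr558, an olfactory receptor gene 28.7 kb from Olfr78, had a log2 difference of -1.18 (SE 0.38, adjusted p = 0.0801), and Cracr2a, 18.8 kb from Prmt8, had a log2 difference of 0.65 (SE 0.21, adjusted p = 0.106). Both passed without tamoxifen replicate 2 (adjusted p = 0.0104 and 0.000600) and with all 32 libraries in the fit (0.0189 and 0.0227).

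Relatives of the 10 genes were listed by family and read in tamoxifen against Miglyol, where 5.68% of all tested genes passed and their median log2 difference was 0. No relative passed among 6 LIM-only factors and partners (median 0.01), 8 arginine methyltransferases (-0.01), 8 SLC22 transporters (0.18), 8 genes of the melanocortin system (0.08), 3 genes of the glycine receptor and its anchoring (-0.12), 6 chemosensory genes (0.06), 6 SLITRK, SLIT and ROBO genes (0) or 3 prokineticin and neuropeptide Y genes (-0.44). Npy1r, the sister receptor of Npy2r, had a log2 difference of -0.80 (SE 0.23, adjusted p = 0.0519, and 0.0130 to 0.160 over its alternatives, of which 7 passed) and Slitrk4 had a log2 difference of -1.36 (SE 0.45, adjusted p = 0.0879, and 0.0184 to 0.257, of which 3 passed). Among 13 thrombospondin repeat proteins Thbs1 rose by 0.48 (SE 0.08, adjusted p = 0.00150) and Rspo2, an activator of Wnt signalling, fell by 0.66 (SE 0.15, adjusted p = 0.0153). Without Miglyol replicate 1 or tamoxifen replicate 1 Rspo2 did not pass, with an adjusted p of at most 0.0644, and the list held up to 5 such genes without tamoxifen replicate 2.

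Of 26 oestrogen receptor and oestrogen-responsive genes, 6 rose and 2 fell, with a median log2 difference of 0.07, beside 3.71% higher and 1.96% lower among all tested genes. Ltf, which encodes the iron-binding protein lactoferrin, rose by 2.21 (SE 0.39, adjusted p = 0.0115), and the complement gene C3 by 0.80 (SE 0.16, adjusted p = 0.0119, and 0.175 with all 32 libraries in the fit). Ltf is also a granule gene of neutrophils, and Camp, Ngp and S100a8, further genes of neutrophils, had log2 differences of 2.55, 2.43 and 2.25 in the same libraries; their part in the Ltf difference was not tested. Gata3, a transcription factor, fell by 0.77 (SE 0.14, adjusted p = 0.00360), and Wisp2 fell by 0.75 (SE 0.18, adjusted p = 0.0157), but did not pass without Miglyol replicate 3 or tamoxifen replicate 1 (at most 0.0602). The number past the threshold was 3 to 9 when a library was left out, and moved by more than 1.5 times without Miglyol replicate 1, 2 or 3 or tamoxifen replicate 1. Esr1 and Esr2 themselves did not pass, with log2 differences of -0.33 (SE 0.50, adjusted p = 0.778) and 0.41 (SE 0.34, adjusted p = 0.563).

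Markers of nerve-related cells and of pericytes were summed in the same libraries. Neuron markers summed to 79.2 to 87.1 CPM after saline, 82.5 to 120.5 CPM after Miglyol and 81.0 to 95.2 CPM after tamoxifen. Of 4 tested neuron markers, Gap43 fell by 0.55 (SE 0.13, adjusted p = 0.0157), and it had an adjusted p of 0.0517 without tamoxifen replicate 1. Schwann cell markers summed to 43.1 to 136.5 CPM after Miglyol and 41.2 to 68.7 CPM after tamoxifen, and neuroendocrine markers to 22.7 to 26.3 CPM and 20.5 to 28.0 CPM. None of their 5 and 4 tested markers passed. The neuron, Schwann cell and neuroendocrine lists held 16, 10 and 11 genes, of which the others did not pass the filter on low counts. With so few tested, and 5.68% of all tested genes passing, these counts say little about the cells.

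Pericyte markers summed to 2764 to 2947 CPM after saline, 2549 to 2718 CPM after Miglyol and 2295 to 2442 CPM after tamoxifen. Of all tested genes 1.96% fell and 3.71% rose. Of 12 pericyte markers, Gucy1a3 fell by 0.31 (SE 0.06, adjusted p = 0.00347) and Rgs5 by 0.59 (SE 0.15, adjusted p = 0.0243). Rgs5 did not pass without Miglyol replicate 2 or 3, with an adjusted p of at most 0.0847, so that 1 marker passed there, and 4 passed without tamoxifen replicate 2. Of 10 club and secretory cell markers 7 rose, and 4 without Miglyol replicate 2 or 4. Of 10 macrophage markers 5 rose, and 2 without tamoxifen replicate 1 or with all 32 libraries in the fit. The part of these cell types in the differences of the 10 genes was not tested.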

How the data were processed

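Lung RNA libraries were prepared with a stranded mRNA kit, per the labels' protocols, and the submitters' processing notes name bcl2fastq 2.0. Which aligner and build were used, and whether counting used strand, is not given in the sources used here, so overlapping antisense genes cannot be told apart. Each deposited file holds read counts for 46165 gene records, made by the authors, as total counts, which hold multi-mapped reads too, and as unique counts. The deposited RPKM served only to compare levels between genes, and the deposited TPM values and the fraction columns (unique to total, intron to gene reads) were not tested. Gene positions were copied from the files. The RefSeq table (GRCm38.p6) holds 43003 of the IDs, and 97.4% of these start within 5 kb of its position.

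Total exon counts were tested by robust quasi-likelihood F tests after filterByExpr and TMM scaling (edgeR 4.0.16, R 4.3.3), with Benjamini-Hochberg adjustment over all genes tested and a threshold of 0.05. The fits held the 12 libraries of day 6, the 20 of day 14 (1 test over 5 groups) and all 32 for untreated day 14 against saline day 6. The SE was taken from the fit as the size of the log2 difference over the root of its F value. Groups were taken from the sample labels. Replicates differed by at least 2.38 in chi-square per gene in 48 pairs within groups, and every library was counted. The scripts were tested on simulated data. The members, lists and tests were chosen with earlier results of these data known. Named genes were the 10 genes, up to 4 called members of each list or its most abundant ones, neighbours, genes of similar pattern, and genes next to the 10 in the ranking. Esr1, Esr2, Slitrk4, Ngp and S100a8 were named after their values were seen. Alternatives were DESeq2 1.42.0, RLE scaling, no filter on low counts, unique reads, all reads in genes, other libraries in the fit, Xist as a covariate, the replicate number as a block, and each library left out.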

Additional observations from a re-analysis of the deposited data

Results flagged for a closer look

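In 2 of 80 groups of 4 libraries (10 genes in 8 groups), the gap between 1 library and its nearest neighbour exceeded Dixon's 95% critical value. Chance flags about 1 group in 20 by this measure, but in both groups 3 libraries are at 0, where a single value above 0 exceeds it by construction, so the critical value and that rate say nothing here. Both concern Lmo3 at day 14, where its reads are few. Water replicate 3 had 0.35 CPM, from 4 exon reads, while the other 3 water libraries had none. This library also had the highest summed skeletal muscle markers of its group, 333.5 CPM against a group median of 10.1 CPM, and their part in its Lmo3 value was not tested. Scrambled 1 replicate 4 had 0.0927 CPM, from 1 exon read, while the other 3 libraries had none. Both libraries enter the day-14 range and read count of Lmo3, and neither is among the groups of its day-14 against day-6 difference.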

How the results depend on the processing

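In tamoxifen against Miglyol 801 genes passed, with 429 to 1188 when 1 library was left out. In tamoxifen against saline it was 3343, with 1991 (without saline replicate 4) to 3924. In Miglyol against saline it was 1498, with 308 (without saline replicate 4) to 1729, and 2272 with all 32 libraries in the fit. Over the 5 day-14 groups it was 166, with 48 (without scrambled 1 replicate 3) to 488 (without scrambled 2 replicate 4), 391 with all reads in genes and 581 with DESeq2. Counts moved by over 1.5 times without Miglyol replicate 1 or 2 or tamoxifen replicate 1 in the first comparison, without saline replicate 4 in the second, without saline replicate 2, 3 or 4 or Miglyol replicate 1, 3 or 4 in Miglyol against saline, and without any daily saline replicate, scrambled 1 replicate 1, 3 or 4 or scrambled 2 replicate 3 or 4 at day 14. For untreated day 14 against saline day 6 it was 5438, with 4766 to 5410. The cause of these shifts was not tested, beyond the smaller number of samples in the fits that leave 1 out.

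With the replicate number as a block, counts were 565 for tamoxifen against Miglyol, 2475 for tamoxifen against saline, 461 for Miglyol against saline, 177 over the day-14 groups and 5343 for untreated day 14 against saline day 6. The median correlation of same-numbered libraries was -0.126 over 12 pairs at day 6, of which 3 exceeded 0.1. At day 14 it was 0.0479 over 40 pairs, of which 18 exceeded 0.1, against -0.0175 for pairs of other numbers. Not every pair exceeded 0.1 in either, so the numbers were not taken as pairing. The highest same-number correlation at day 14 was 0.496. Structure shared by only some same-numbered libraries would fail so strict a rule, so the rule does not decide whether it is present.

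Of 320 refits of the tamoxifen differences of the 10 genes, 317 moved by less than the spread between replicates. The other 3 were a with all reads in genes (1.60 against Miglyol and 2.04 against saline) and Prmt8 against saline without saline replicate 1 (5.48). Leaving out 1 of 4 libraries seldom moves a difference by as much as this spread, so the 317 are not read as support. Of 158 refits of the differences between untreated day 14 and saline day 6, 155 kept their side of the threshold and their direction. The 158 include Prmt8, Lmo3 and Glrb, which are described with no test in the report. The exceptions were Prmt8 without untreated replicate 4, a with all reads in genes, and a without untreated replicate 3. In the last of these the sign of a turned to -0.23 (leaving out each library in turn gave -0.23 to 0.68). Of 192 refits over the day-14 groups, 183 kept their side, 7 of Prokr2 and 2 of Slitrk6 passing instead. Of 592 refits of other named genes in tamoxifen against Miglyol, 534 kept their side. Depth limits Lmo3, Prokr2, Glrb and Slc22a19, with no more than 20 tamoxifen reads per library, and Prmt8, with no more than 2 reads per day-6 control library.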
